A study of Mus musculus with 24 samples.

Results

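RNA pulled down from Homer1a-expressing cells of the mouse brain was compared with the RNA that the pull-down left in the supernatant. All 12 pull-down arrays and all 4 supernatant arrays of the series were taken, 16 of 24 arrays, and every probe set of the array was described, 45037 without the controls. The mice were males of 12 ± 1 weeks, killed at ZT6 (6 h after light onset). For 6 pull-downs the animals had been kept awake for those 6 h by gentle handling, and for the other 6 they had been left undisturbed. All of these brains had been perfused with 1% formaldehyde, and the tagged RNA was immunoprecipitated on anti-FLAG beads. The sources used here give no strain, transgene or promoter. The submitters' source field calls the supernatants Homer1a-negative cells, although a supernatant also keeps whatever tagged RNA the beads did not bind. One supernatant, number 13, carries a title for sleep deprivation and a source field for control, so the 4 supernatants were treated as 1 group. By title, 3 of them (13, 14 and 15) are from sleep-deprived mice and 1 (16) from a control, against 6 and 6 pull-downs, so the treatments are not balanced between the extracts. Some supernatants may come from the animals of the pull-downs, but nothing ties one array to another, so each counts as a separate sample. The p-values therefore measure the spread between these arrays. Pull-down arrays hold polyadenylated RNA, of which 10 ng was amplified, and supernatant arrays hold total RNA. The sources used here do not say how supernatant RNA was amplified. Cell type, RNA class, extraction and amplification therefore cannot be told apart in this comparison.

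In mRNA tagging, a poly(A)-binding protein with an epitope tag is made in chosen cells, bound mRNA is fixed to it, and an antibody to the tag recovers that mRNA from a homogenate of the whole tissue. Homer1 codes for a scaffold of the postsynaptic density that links metabotropic glutamate receptors to Shank proteins and to calcium stores. Homer1a is its short form, induced as an immediate early gene by neuronal activity and sleep loss, which lacks the domain that joins Homer proteins together. The supernatant is what remains of the homogenate of all brain cells after that recovery.

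Values are log2 intensities as the authors deposited them. A difference is pull-down minus supernatant, with the SE of the limma fit, and groups are given as mean ± SD. The arrays of the extracts did not share a common level. The median of an array was 4.98 ± 0.38 (n = 12, between 4.37 and 5.70) in pull-down and 6.15 ± 0.05 (n = 4) in supernatant (difference -1.17, exact permutation test, two-sided, p = 0.000549, the smallest that 12 against 4 arrays can give). No pull-down array reached a supernatant. The 18S ribosomal RNA control, an RNA without a poly(A) tail, was at 8.54 ± 1.50 in pull-down and 14.29 ± 0.09 in supernatant (difference -5.75, exact permutation p = 0.000549). The 24 probe sets of the bacterial poly(A) controls (dap, lys, phe and thr) averaged 4.77 ± 1.05 against 9.36 ± 0.26, while the 18 probe sets of the hybridization controls (bioB, bioC, bioD and cre) averaged 11.67 ± 0.21 against 11.83 ± 0.04. For Gapdh the 3′ minus 5′ control difference, which grows as probe sets farther from the 3′ end lose signal, was 4.92 ± 0.78 in pull-down and 2.43 ± 0.13 in supernatant (difference 2.49, exact permutation p = 0.000549). Among the pull-downs, control 3 and sleep-deprived 1 had the most 18S signal (11.14 and 11.04) and correlated best with the supernatants (r = 0.883 and 0.895 across probe sets, against 0.779 to 0.817 in the other 10). Pull-down control 11 had the lowest 18S signal, 6.83, and was least like the other pull-downs (r = 0.913).

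**Figure D1:**
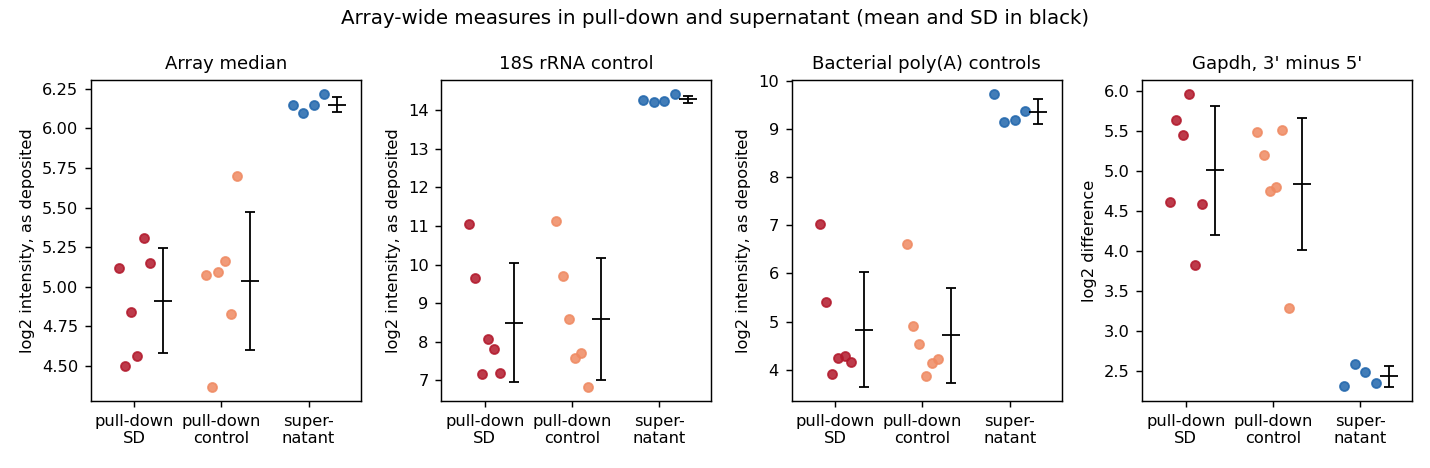
Each point is 1 array; from left to right the panels give the array median, the 18S control, the mean of the bacterial poly(A) controls (log2 intensity as deposited) and the Gapdh 3′ minus 5′ difference (log2), for pull-downs after sleep deprivation (n = 6), control pull-downs (n = 6) and supernatants (n = 4), with the mean and SD in black. The supernatants sit apart from all pull-downs in each panel, and sleep-deprived 1 and control 3 lie nearest to them for 18S and the bacterial controls.

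The number and the direction of the calls depended on the scale. As deposited, 4650 probe sets (10.3%) were higher in pull-down and 28228 (62.7%) lower at an adjusted p under 0.05 (limma, Benjamini-Hochberg). After quantile normalization of the 16 arrays, which gives each array the same distribution, 10618 (23.6%) were higher and 11107 (24.7%) lower. With each array centred on its median, 17918 (39.8%) were higher and 7293 (16.2%) lower. The share of higher calls among all calls was thus 14.1%, 48.9% and 71.1% on these scales. The median difference over probe sets was -0.85, 0.02 and 0.32. There were 670 probe sets called lower as deposited and higher after quantile normalization, and 0 the other way. A probe set is described as higher or lower below only where its call had the same direction on all 3 scales, which held for 4530 probe sets (10.1%) in the higher and 7202 (16%) in the lower direction.

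Counted over 18193 genes, with the brightest of a gene's own probe sets for each, 2551 (14%) were higher and 10178 (55.9%) lower as deposited, and 5648 (31%) higher and 3004 (16.5%) lower after quantile normalization. On all 3 scales 2493 genes (13.7%) were higher and 1421 (7.81%) lower. The brightest probe set was chosen over the 16 arrays, which enter the difference. The median difference over genes was -0.70 as deposited and 0.16 after quantile normalization, and the gene lists below are read against these values. The difference also depended on level. In 10 equal bins of probe sets by supernatant level, its median as deposited was -0.36 in the dimmest, -1.21 in bins 7 and 8 and -0.99 in the brightest. After quantile normalization it was 0.13 in the dimmest and -0.98 in the brightest. The bins were cut on a group that enters the difference, so part of this slope is built in.

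Homer1 itself gave opposed readings. Of its 6 probe sets, 3 were higher in pull-down, 2 were lower on all 3 scales, and 1 was called lower as deposited only. Probe set 1436387_at ran from 8.82 to 11.56, median 10.51, in the 12 pull-downs, and was at 7.23, 8.91, 8.62 and 7.60 in supernatants 13, 14, 15 and 16. Only pull-down control 11, at 8.82, fell below a supernatant, and the 6 sleep-deprived pull-downs were all above the highest control pull-down. The difference was 2.40 ± 0.30 (SE; adjusted p = 7.46e-07), and 2.84 after quantile normalization. The second of the higher probe sets, 1439662_at, ran from 9.63 to 10.93, median 10.64, against 8.89, 9.64, 8.83 and 9.64 in the same supernatants, a difference of 1.29 ± 0.23 (adjusted p = 6.96e-05). The third, 1437363_at, differed by 1.14 ± 0.26 (adjusted p = 0.000534). In both, control 11 was again the pull-down that lay among the supernatants.

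In the other direction, 1421768_a_at ran from 6.15 to 9.72, median 7.04, in pull-down and was at 10.04, 10.40, 9.82 and 10.01 in the supernatants. Every pull-down was below every supernatant, although sleep-deprived 1, at 9.72, came close to the lowest of them. The difference was -2.74 ± 0.39 (adjusted p = 3.81e-06). Probe set 1425710_a_at differed by -2.62 ± 0.42 (adjusted p = 1.69e-05), with sleep-deprived 1 and control 3, at 8.27 and 7.51, the highest pull-downs, and sleep-deprived 1 above supernatant 15. Probe set 1425671_at, at -1.29 ± 0.49 (adjusted p = 0.0225), was called on neither other scale, at -1.24 after quantile normalization (adjusted p = 0.0544) and -0.12 with arrays centred on their medians (adjusted p = 0.883). Which Homer1 transcript, and which stretch of it, each probe set reads was not analysed here. The 6 probe sets do not give 1 direction for Homer1.

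**Figure D2:**
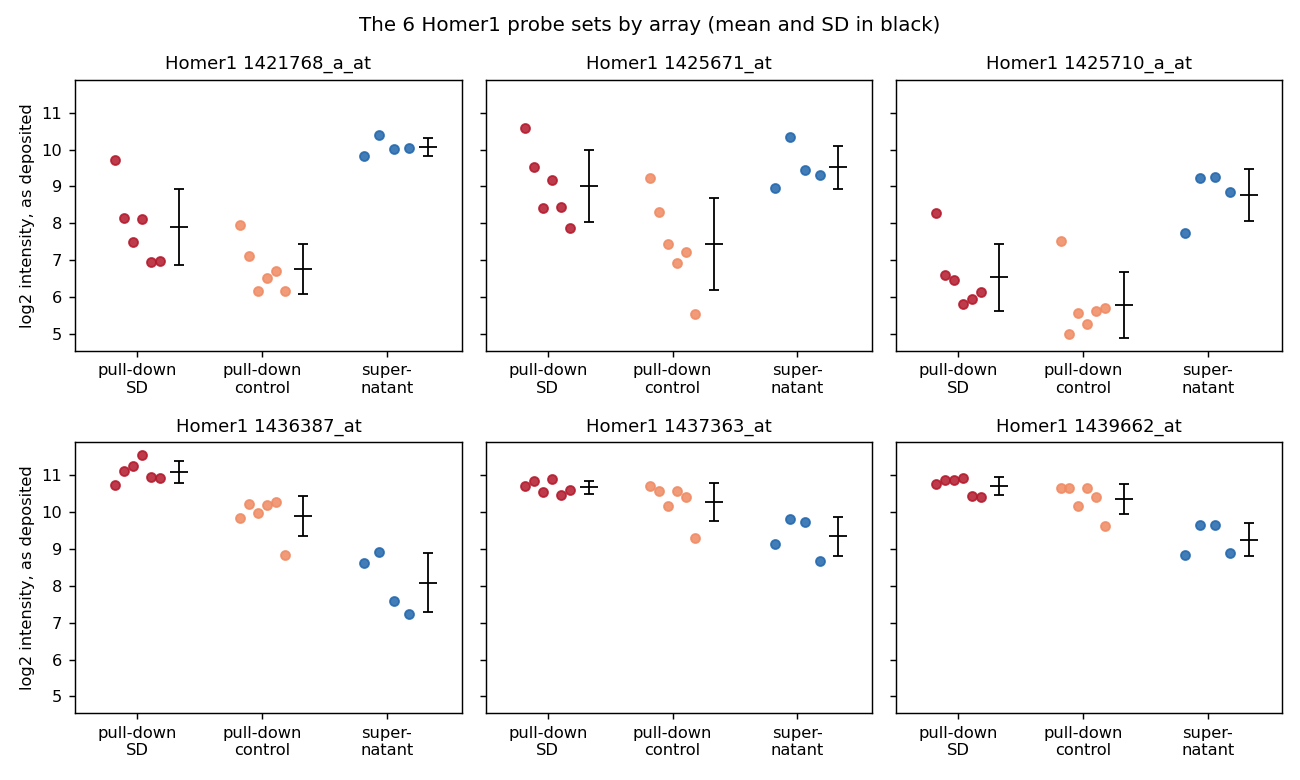
Each panel is 1 of the 6 Homer1 probe sets and each point 1 array (log2 intensity as deposited), grouped as pull-down after sleep deprivation, pull-down control and supernatant, with the mean and SD in black. The 3 probe sets of the upper row lie lower in pull-down and the 3 of the lower row higher.

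The 15 genes with the largest differences in the higher direction came from several functions, with ratios of 12.2 to 26.9-fold as deposited. Fmn1, a formin that nucleates actin filaments, ran from 8.81 to 10.22, median 9.65, in pull-down and was at 5.08, 4.44, 4.68 and 5.24 in supernatants 13 to 16. The groups lay far apart, by 4.75 ± 0.24 (a 26.9-fold ratio, adjusted p = 5.49e-11). Grik3, a kainate receptor subunit, ran from 9.74 to 10.78, median 10.35, against 5.86, 7.25, 7.39 and 6.22, a difference of 3.63 ± 0.27 (adjusted p = 2.08e-09). Anks1b, a postsynaptic density protein that binds PSD-95, ran from 9.59 to 10.96, median 10.51, against 6.07, 7.15, 6.88 and 6.91, a difference of 3.70 ± 0.27 (adjusted p = 2.06e-09). In each of these 3 genes every pull-down was above every supernatant. Also among the 15 were Aplnr, the receptor of the peptide apelin (4.20 ± 0.40), and Rpgr, a protein of the cilium (4.04 ± 0.23). Dck, which phosphorylates deoxycytidine, differed by 4.23 ± 0.27, and Rps25, of the small ribosomal subunit, by 4.04 ± 0.44. The mRNA export factor Sarnp differed by 4.03 ± 0.26 and the nuclear regulator Eid1 by 3.67 ± 0.21. The others were Stum, Lgalsl, Mreg, Tmem255a, Cherp and Zfp317, at 3.61 to 4.18. Adjusted p-values of the 15 were between 5.49e-11 and 1.59e-07, and the groups overlapped in none of the 15. The genes were selected for large differences, so both traits follow largely from that choice.

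The 15 largest differences in the lower direction included genes of glia and of RNA processing. Glul, the glutamine synthetase of astrocytes, ran in its probe set 1426235_a_at from 4.50 to 8.18, median 5.54, in pull-down and was at 10.87, 10.92, 11.44 and 10.57 in supernatants 13 to 16, a difference of -5.09 ± 0.47 (adjusted p = 2.53e-08). Mbp, the myelin basic protein, ran in 1419646_a_at from 5.69 to 8.55, median 6.27, against 11.52, 11.22, 11.84 and 11.23, a difference of -4.90 ± 0.38 (adjusted p = 3.18e-09). Sleep-deprived 1 was the highest pull-down for Mbp and still below every supernatant. Hnrnpab, an RNA-binding protein of the nucleus, differed by -5.09 ± 0.43. Ptgds, the prostaglandin D synthase of meninges, choroid plexus and oligodendrocytes, differed by -4.57 ± 0.32. Scd2, a fatty acid desaturase, differed by -4.55 ± 0.33, and Mobp, a protein of myelin, by -4.52 ± 0.42. Neuronal genes were also among the 15, such as Kidins220, a membrane scaffold of neurotrophin receptors (-4.68 ± 0.43), and Dpysl2, a regulator of axon growth (-4.52 ± 0.51). Kirrel3, Septin11, Aplp2, Sfswap, Zbed6, Bin1 and Ube2b lay between -4.67 and -4.47. In none of the 15 did the groups overlap, which again follows largely from their selection.

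Several of these genes had other probe sets that moved less. Glul 1426236_a_at, the brighter of its probe sets, was at 13.02 in pull-down and 12.80 in supernatant (difference 0.21, adjusted p = 0.304). Of 4 Mbp probe sets, 3 were lower and 1433532_a_at differed by -0.17 (adjusted p = 0.444). Hnrnpab 1415914_at differed by -0.39 (adjusted p = 0.248), and Mobp 1433785_at by -0.52 (adjusted p = 0.133). Scd2 1415822_at differed by -0.80 and Ptgds 1423859_a_at by -1.85, each the brightest of its gene in whole brain and without a call on all 3 scales. Scd2 1415824_at was lower, at -4.33. Across the array, 7906 genes had at least 2 probe sets of their own, and 891 of them (11.3%) held 1 called higher and another called lower on all 3 scales. Mapre2, a protein of microtubule ends, had the widest such gap. Its 1451989_a_at ran from 11.82 to 12.70, median 12.44, in pull-down, against 8.28, 9.47, 9.75 and 8.76 in supernatants 13 to 16. Its 1426244_at ran from 3.79 to 8.15, median 5.02, against 9.05, 8.83, 9.34 and 8.96. The differences were 3.34 ± 0.24 and -3.74 ± 0.58. Auts2, a neuronal gene linked to autism, ranked second with 3.55 ± 0.22 in 1457139_at and -3.46 ± 0.35 in 1443062_at. For Anks1b the higher probe set above stood beside 1447464_at at -3.10 ± 0.40. Rab2b, a vesicle GTPase, and Nedd4l, a ubiquitin ligase, completed the 5 widest.

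Ordered by their level on the 8 whole-brain arrays, which do not enter the difference, the brightest probe sets of these 7906 genes were higher in pull-down in 16.6% and lower in 15.2%. The dimmest probe sets of the same genes were higher in 6.78% and lower in 19.1%. Within a gene the shift was small. The brightest probe set had the larger difference as deposited in 52.5% of the genes, and the median of brightest minus dimmest was 0.08. The position of a probe set along its transcript was not analysed here, and its part in these opposed calls was not tested. Pull-down had the larger 3′ minus 5′ difference of Gapdh, as given above, and the same held for Actb (0.49 ± 0.37 against -0.78 ± 0.03). A gene list below is therefore counted in 2 ways. The main count uses the probe set that is brightest over the 16 arrays. Most of these are pull-downs and all enter the difference, so this choice can favour probe sets that are high in pull-down. By it 13.7% of all genes were higher and 7.81% lower on all 3 scales. The second count, chosen after the data had been seen, uses the probe set brightest in whole brain. By that choice 11.2% of all genes were higher and 10.4% lower.

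Counted on 1 probe set per gene, genes of forebrain excitatory neurons were the marker group most often higher. Of this group's 8 genes with several probe sets, 4 held opposed calls on all 3 scales, against 11.3% across the array. On all 3 scales 8 of the 15 measured genes were higher and 0 lower, with a median difference of 1.06 as deposited and 1.50 after quantile normalization, and by the second choice of probe sets 7 higher and 1 lower. Neurod6, a transcription factor of pyramidal neurons, ran from 7.87 to 9.55, median 9.08, in pull-down and was at 5.97, 6.76, 5.92 and 6.46 in supernatants 13 to 16. Every pull-down was above every supernatant, with a difference of 2.66 ± 0.27 (adjusted p = 8.07e-08). The cortical transcription factors Bcl11b (1.71 ± 0.22), Cux2 (1.40 ± 0.25), Rorb (1.27 ± 0.34) and Tbr1 (1.16 ± 0.26) were higher too. Slc17a7, the vesicular glutamate transporter of these neurons, was not: its only probe set differed by -2.19, and -1.54 after quantile normalization, and was called lower as deposited. Camk2a, the kinase of excitatory synapses, was higher by 1.34 ± 0.27 in the probe set counted here, 1457311_at, but 4 of its other probe sets were lower on all 3 scales, among them 1452453_a_at, its brightest in whole brain, at -3.36.

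General neuronal genes were split on all 3 scales, and more were lower than higher as deposited and after quantile normalization. Of the neuronal markers, 5 of the 20 measured genes were higher and 3 lower on all 3 scales. The counts were 5 and 10 as deposited and 5 and 12 after quantile normalization, with median differences of -0.79 and -0.86. Rbfox3, the nuclear antigen NeuN, ran from 10.59 to 11.48, median 11.10, in pull-down, against 8.37, 8.67, 8.82 and 8.15 in the supernatants, a difference of 2.56 ± 0.20 (adjusted p = 4.73e-09). Elavl4, an RNA-binding protein of neurons, was higher by 2.53 ± 0.24. Syp, the vesicle protein synaptophysin, ran from 7.89 to 11.78, median 8.67, against 12.25, 12.47, 12.44 and 12.51, a difference of -3.09 ± 0.56 (adjusted p = 6.33e-05). The neuronal ubiquitin hydrolase Uchl1 (-3.11 ± 0.49) and the growth cone protein Gap43 (-2.93 ± 0.51) were lower as well. The pan-neuronal Snap25, a protein of vesicle fusion, differed by 0.41, and 0.12 after quantile normalization, and was not called on all 3 scales.

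Among interneuron genes, 5 of the 15 measured genes were higher and 0 lower. The higher ones were the peptides Vip (1.94 ± 0.30) and Npy (0.65 ± 0.23), the matrix protein Reln (0.77 ± 0.31), the transcription factor Dlx5 (1.14 ± 0.25) and the potassium channel Kcnc1 (1.98 ± 0.22). The enzymes of GABA synthesis, Gad1 and Gad2, differed by 0.51 and 0.48, and the calcium-binding Pvalb by -1.84, and -2.03 after quantile normalization. None of these 3 was called on all 3 scales. Striatal genes were mixed, with 3 of 12 higher and 2 lower, and 2 higher and 3 lower by the second choice of probe sets. The phosphodiesterase Pde10a (2.69 ± 0.29) and the peptide precursor Tac1 (1.89 ± 0.24) were higher, while Ppp1r1b, the phosphatase inhibitor DARPP-32, was lower, at -3.39 ± 0.37, and the dopamine receptor Drd2 at -1.78 ± 0.26. Of 11 cerebellar genes 4 were higher and 0 lower (4 higher and 1 lower by the second choice), among the higher ones Gabra6, the GABA receptor subunit of granule cells (2.25 ± 0.41), and Calb1, of Purkinje cells (1.82 ± 0.27). The Purkinje cell gene Pcp2 was at -1.76, and -1.20 after quantile normalization, not called on all 3 scales.

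Genes of deeper brain regions were divided. Of 12 thalamic genes 2 were higher and 2 lower, of 15 hypothalamic genes 1 and 1, and of 11 genes of monoamine and cholinergic neurons 0 and 2. The second choice gave 1 higher and 3 lower for the thalamic genes and left the other counts as they were. The higher hypothalamic gene was Crh, corticotropin-releasing hormone, which cortical interneurons make as well. It ran from 9.60 to 11.22, median 10.68, in pull-down, against 6.10, 8.27, 8.80 and 6.76 in the supernatants. The difference was 3.10 ± 0.35 (adjusted p = 2.67e-07). Th, the tyrosine hydroxylase of dopamine and noradrenaline neurons, was lower, at -2.58 ± 0.25, and Pomc, the melanocortin precursor, at -1.92 ± 0.30. Whether these regional counts differ from one another was not tested.

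**Figure D3:**
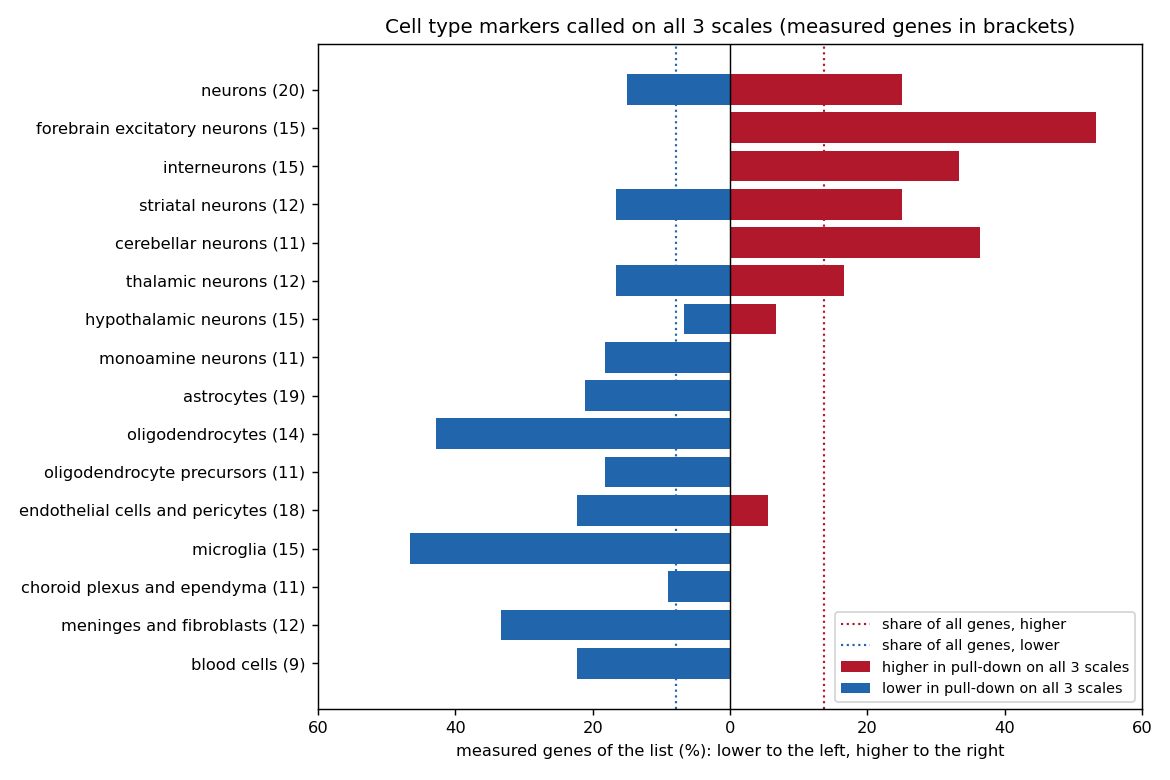
Bars give the share (%) of each cell type's measured marker genes that were higher (right) or lower (left) in pull-down on all 3 scales, 1 probe set per gene, with the number of measured genes in brackets and dotted lines at the share of all genes (13.7% higher, 7.81% lower). Astrocyte, oligodendrocyte, precursor, microglia, choroid plexus, meningeal, blood and monoamine lists have no higher gene, and the excitatory, interneuron and cerebellar lists have no lower one.

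Glial markers were more often lower than higher. For astrocytes 0 of 19 measured genes were higher and 4 lower on all 3 scales, for oligodendrocytes 0 and 6 of 14, and for microglia 0 and 7 of 15. None of these genes was higher as deposited or after quantile normalization, while with arrays centred on their medians 5 astrocyte, 2 oligodendrocyte and 2 microglia genes were. Medians were -1.35 and -0.62 for astrocytes on these scales, -1.36 and -0.79 for oligodendrocytes and -1.45 and -0.44 for microglia. The second choice of probe sets gave 0 higher and 5 lower, 0 higher and 5 lower and 0 higher and 7 lower. Low medians were not particular to glia. After quantile normalization the neuron list was at -0.86, genes of the Homer scaffold at -0.91 and synaptic vesicle genes at -0.77. The excitatory and interneuron lists were at 1.50 and 0.28 on that scale. The mean level of the whole astrocyte list was 7.27 to 8.13 in pull-down and 8.78 to 8.95 in supernatant, that of the oligodendrocyte list 7.11 to 7.65 in pull-down and 8.67 to 8.92 in supernatant, and that of the microglia list 4.87 to 5.65 in pull-down and 6.55 to 6.75 in supernatant, with no overlap in any of the 3. This separation was not particular to glia. The thalamic list, at 6.94 to 7.75 in pull-down and 7.89 to 8.16 in supernatant, did not overlap either. The same held for other lists, among them cholesterol synthesis, cytosolic ribosomal proteins and histones, and for the array medians. The neuron, excitatory and interneuron lists did overlap. In a bulk extract, fewer cells of a type and less RNA per cell cannot be told apart.

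Gfap, the filament protein of astrocytes, ran from 3.60 to 7.27, median 4.83, in pull-down and was at 8.59, 9.26, 8.95 and 8.68 in supernatants 13 to 16. All pull-downs were below all supernatants, with a difference of -3.91 ± 0.50 (adjusted p = 1.04e-06). Mlc1, a membrane protein of astrocyte endfeet, was lower, at -3.90 ± 0.46, and Slc1a2, the main glutamate transporter of the forebrain, at -2.75 ± 0.48. Other astrocyte genes were not called on all 3 scales, such as the transporter Slc1a3 (-0.10, and 0.28 after quantile normalization) and the aldolase Aldoc (-0.17 as deposited). Cnp, an enzyme of myelin, ran from 5.77 to 7.82, median 6.28, against 9.20, 8.47, 9.61 and 9.11, a difference of -2.71 ± 0.30 (adjusted p = 2.01e-07). The myelin proteins Mag (-2.48 ± 0.29) and Mal (-2.47 ± 0.28) were lower, and the precursor cell factor Olig1 was lower, at -2.06 ± 0.27.

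C1qb, a complement component made by microglia, ran from 2.40 to 4.15, median 3.33, in pull-down, against 6.10, 6.11, 6.22 and 5.84 in supernatants 13 to 16. The groups did not overlap, and the difference was -2.72 ± 0.25 (adjusted p = 2.45e-08). Aif1, the calcium-binding Iba1, was lower, at -2.56 ± 0.31, and the purine receptor P2ry12 at -2.01 ± 0.24. Of 18 vascular genes 4 were lower, for instance Slco1c1, a thyroid hormone transporter of the blood-brain barrier (-2.45 ± 0.29), and the tight junction protein Cldn5 (-1.67 ± 0.25). One vascular gene, the glucose transporter Slc2a1, was higher by 1.52 ± 0.27, but its probe set brightest in whole brain was not, and by that choice none of the 18 was higher. Ttr, the transthyretin of the choroid plexus, was lower, at -2.75 ± 0.28, and the meningeal collagen Col1a2 at -2.07 ± 0.34. The haem synthesis enzyme Alas2, a marker of red blood cells, was lower, at -1.96 ± 0.27. In all, 1 of 11 choroid plexus, 4 of 12 meningeal, 2 of 9 blood and 2 of 11 oligodendrocyte precursor genes were lower and none higher. Medians as deposited and after quantile normalization were -0.92 and 0.15 for vascular, -0.89 and 0.02 for choroid plexus, -1.15 and -0.25 for meningeal and -0.80 and 0.24 for blood genes, against -0.70 and 0.16 for all genes. All 4 were below the median of all genes as deposited, and after quantile normalization the vascular list was close to it and the blood list above it. Many of these markers are dim, and in supernatant their list means did not exceed 7.24.

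Immediate early genes, which neurons switch on within minutes of activity, were often higher. On all 3 scales 16 of the 41 measured genes were higher and 2 lower, against 13.7% and 7.81% of all genes. Homer1 is counted among the 16 by its probe set 1439662_at, although other Homer1 probe sets were lower on all 3 scales. The median difference was 0.19 as deposited and 1.09 after quantile normalization. With the probe sets brightest in whole brain the count was 13 higher and 3 lower, with medians of -0.58 and 0.30. Against the supernatants, sleep-deprived pull-downs alone had 19 of the 41 higher as deposited and control pull-downs alone 15, where all 12 had 17. Over all 45037 probe sets the higher counts in these settings were 4720, 4119 and 4650. Whether the counts of this list differ between the settings was not tested.

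Nr4a2, an orphan nuclear receptor, ran from 10.43 to 11.20, median 10.93, in pull-down and was at 6.54, 7.79, 8.07 and 7.25 in supernatants 13 to 16. No array overlapped, and the difference was 3.47 ± 0.24 (adjusted p = 1.38e-09). Fos, the classic activity-induced transcription factor, ran from 7.07 to 9.45, median 8.49, against 5.66, 6.96, 6.40 and 6.10, a difference of 2.11 ± 0.37 (adjusted p = 4.14e-05). Its mean was 8.99 in the sleep-deprived and 7.79 in the control pull-downs, both above the supernatants, where it was 6.28. The zinc finger factors Egr3 (2.14 ± 0.28) and Egr2 (1.85 ± 0.45), the signalling regulator Rgs2 (2.19 ± 0.23) and the stress sensor Gadd45b (2.02 ± 0.21) were higher as well. Some of the best known members were not. Arc, a cytoskeletal protein of dendrites, was at -0.91, and -0.30 after quantile normalization, and Egr1 at 0.44 and -0.01. Npas4, a factor of inhibitory synapse formation, was at 0.25 and 1.09 and Junb at -0.79 and 0.29. The 2 lower genes, the phosphatases Dusp5 (-2.13 ± 0.33) and Dusp14 (-1.65 ± 0.28), were named after their values had been seen.

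**Figure D4:**
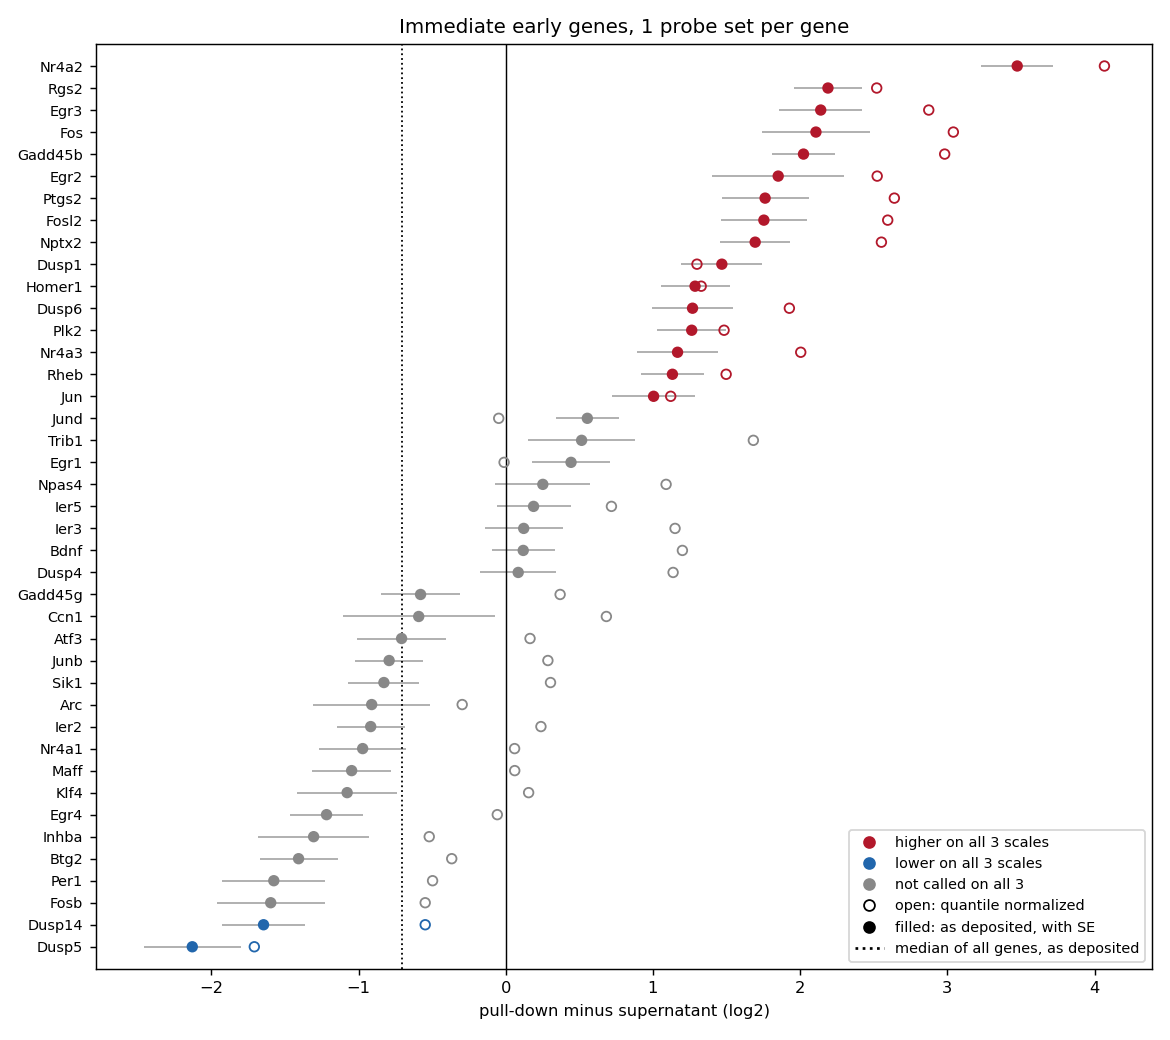
Each row is 1 immediate early gene and the horizontal axis its pull-down minus supernatant difference (log2): filled points are as deposited with the SE, open points after quantile normalization, and colour gives the call on all 3 scales. Of the 41 genes, 16 are higher and 2 lower, and the dotted line at -0.70 is the median difference of all genes as deposited.

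Many immediate early genes share promoter elements, and the bases upstream of their starts were read from RefSeq promoters of GRCm38.p6. The motif searched was TGACGT, the core of the cAMP response element, on both strands (ACGTCA on the other), in the 250 bases before each start. Fos, Egr2 and Plk2, higher here, Dusp5, lower here, and Homer1, with opposed probe sets, hold it within 100 bases of a start and are shown 5′ to 3′ on the gene's strand, with the matches in capitals.
Homer1, chr13:93303657-93303756 (+): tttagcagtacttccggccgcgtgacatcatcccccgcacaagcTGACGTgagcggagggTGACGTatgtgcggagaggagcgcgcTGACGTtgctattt
Fos, chr12:85473790-85473889 (+): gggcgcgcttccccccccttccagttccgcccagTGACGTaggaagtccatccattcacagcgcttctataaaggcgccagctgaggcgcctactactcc
Egr2, chr10:67537769-67537868 (+): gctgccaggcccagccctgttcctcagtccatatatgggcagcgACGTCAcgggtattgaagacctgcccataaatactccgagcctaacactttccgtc
Plk2, chr13:110394944-110395043 (+): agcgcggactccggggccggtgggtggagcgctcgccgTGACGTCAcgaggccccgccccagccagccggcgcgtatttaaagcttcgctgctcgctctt
Dusp5, chr19:53529045-53529144 (+): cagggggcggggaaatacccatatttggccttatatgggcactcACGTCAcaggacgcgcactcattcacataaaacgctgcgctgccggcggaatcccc
Homer1 has 3 matches, 56, 40 and 14 bases before its start, and Plk2 has 2 overlapping ones on opposite strands. The motif was in 16 of the 33 measured immediate early genes with a promoter in the table (48.5%), against 7.29% of 27025 genes in all. It was in 7 of 14 higher genes (50%) and in 8 of 17 genes that were neither higher nor lower (47.1%). Homer1 is among the 7, counted as higher by 1439662_at. The shares lay close together and were not tested. A match describes letters only, and no binding was measured.

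At the synapse, genes of the scaffold that Homer proteins join fell on both sides, and the balance depended on the probe sets. Of 15 measured genes of this scaffold 4 were higher and 3 lower on all 3 scales, with a median of -1.14 as deposited and -0.91 after quantile normalization. By the second choice of probe sets, 2 higher and 7 lower. Dlg4, the scaffold PSD-95, ran from 5.70 to 8.57, median 6.33, in pull-down, against 9.64, 9.77, 10.26 and 9.66 in supernatants 13 to 16, a difference of -3.25 ± 0.38 (adjusted p = 3.28e-07). Every pull-down was below every supernatant. Shank1 was lower, at -2.16 ± 0.30, while Homer2 (1.46 ± 0.26), Dlgap1, a partner of PSD-95 (1.69 ± 0.26), and the calcium release channel Ryr2 (1.24 ± 0.23) were higher. The metabotropic receptor Grm5 was at -1.14, and -1.28 after quantile normalization, not called on all 3 scales.

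Receptor subunits fell on both sides. Of 19 glutamate and GABA receptor genes 6 were higher and 3 lower. Gria1, an AMPA receptor subunit, ran from 5.96 to 9.69, median 6.99, against 11.36, 11.03, 10.99 and 10.99 in the supernatants, a difference of -3.71 ± 0.48 (adjusted p = 1.48e-06). Its partner subunit Gria2 ran from 11.69 to 12.36, median 11.88, against 9.92, 10.24, 9.92 and 10.27, a difference of 1.86 ± 0.19 (adjusted p = 8.52e-08). Thus 2 subunits of the same receptor were called in opposite directions. The NMDA receptor subunit Grin2a was lower, at -3.31 ± 0.30. The GABA receptor subunits Gabra2 (2.15 ± 0.27), Gabra4 (1.98 ± 0.29) and Gabra5 (1.43 ± 0.32) were higher.

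Among 27 genes of synaptic vesicles and release 6 were higher and 3 lower. The vesicle protein Sv2a (-3.27 ± 0.48) and the vesicle GTPase Rab3a (-3.05 ± 0.45) were lower, and the active zone protein Pclo (2.00 ± 0.23) and the complexin Cplx1 (2.11 ± 0.22) higher. Of 17 mRNAs known from dendrites 4 were higher and 3 lower. Fmr1, the RNA-binding protein lost in fragile X syndrome, was higher by 2.45 ± 0.31. Channels of the neuronal membrane were more often higher, with 12 of 30 higher and 4 lower, and 10 higher and 6 lower by the second choice. Of the 23 channel genes with several probe sets, 10 held opposed calls on all 3 scales, against 11.3% across the array. Scn2a, a sodium channel of axons, ran from 11.72 to 12.68, median 12.25, in pull-down, against 8.68, 9.81, 8.66 and 8.94 in the supernatants, a difference of 3.25 ± 0.23 (adjusted p = 1.60e-09). No pull-down reached down to a supernatant. The potassium channel Kcnq5 (2.31 ± 0.24) and the calcium channel Cacna1b (2.27 ± 0.18) were higher too. The list's median was -0.40 as deposited and 0.04 after quantile normalization.

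In the respiratory chain more genes were higher than lower on all 3 scales, but the split was near even as deposited and after quantile normalization. Of 72 measured genes 23 were higher (31.9%) and 6 lower (8.33%), and 19 higher and 6 lower by the second choice. The counts were 29 higher and 29 lower as deposited, and 27 and 25 after quantile normalization. The list's medians were -0.03 and 0.14, against -0.70 and 0.16 for all genes. Cox5a, of cytochrome oxidase, was higher by 2.16 ± 0.24, Ndufs7, of complex I, by 2.10 ± 0.22 and the electron carrier Cycs by 1.76 ± 0.22. Ndufc2, also of complex I, was lower, at -2.77 ± 0.30. Enzymes of glucose use were mixed, 5 higher and 3 lower of 20. Slc2a3, the glucose transporter of neurons, was lower, at -3.44 ± 0.43, and the phosphofructokinase Pfkm at -2.51 ± 0.36, while the lactate dehydrogenase Ldhb was higher by 1.97 ± 0.22. In cholesterol synthesis 4 of 19 genes were higher and 3 lower, with the isomerase Idi1 at 3.32 ± 0.27 and the cyclase Lss at -2.22 ± 0.30.

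Machinery of protein synthesis and turnover showed no common direction on all 3 scales, but some of its lists leaned lower after quantile normalization. Of 45 cytosolic ribosomal protein genes 6 were higher and 6 lower, and the 35 others of that list were not measured by a probe set with 1 symbol. Of the 45, 8 were higher and 27 lower as deposited, and 7 and 25 after quantile normalization. Their medians were -0.68 and -0.60, against -0.70 and 0.16 for all genes. These genes have many near-identical pseudogenes, so their values are uncertain. Rps25, at 4.04, was described above, Rpl14 was higher by 1.47 ± 0.25, and Rpl8 was lower, at -2.58 ± 0.34. Mitochondrial ribosomal proteins had 13 higher and 6 lower of 69, led by Mrpl44 (3.59 ± 0.24). Translation factors had 8 higher and 5 lower of 38: the initiation factor subunit Eif3c was lower, at -2.89 ± 0.41, and the start factor Eif1ax higher by 1.91 ± 0.25. With quantile normalization alone, 10 of these 38 were higher and 20 lower, with a median of -0.59. Poly(A)-binding proteins and their partners, the machinery that the tag borrows, had 5 higher and 1 lower of 14. The antiproliferative Tob1, which links such proteins to deadenylation, was higher by 2.36 ± 0.29, and the endogenous binding protein Pabpc1 was at -0.42, and -0.06 after quantile normalization. Proteasome genes had 9 higher and 6 lower of 33, with subunit Psma5 at 3.16 ± 0.29 and subunit Psmb2 at -2.97 ± 0.31.

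Nuclear functions were also divided. Splicing factors had 8 higher and 6 lower of 30, with Sf3b2, of the U2 particle, at -4.15 ± 0.50 and Snrpa1, of the same particle, at 2.30 ± 0.23. Nucleolar genes had 3 higher and 5 lower of 25, with Nop10 at 3.44 ± 0.25 and the methyltransferase fibrillarin, Fbl, at -2.36 ± 0.33. Histones had 4 higher and 3 lower of 12. The linker histone H1f4 (-4.31 ± 0.35) and the variant Macroh2a1 (-2.44 ± 0.31) were lower, and the linker histone H1f2 (1.43 ± 0.30), the core histone H2aw (2.01 ± 0.26) and the variant H2az1 (2.66 ± 0.21) higher. Among 16 long noncoding RNAs 4 were higher and 2 lower. Snhg1, a host gene of small nucleolar RNAs, was higher by 3.49 ± 0.27, and Kcnq1ot1, an imprinted nuclear RNA, was lower, at -2.78 ± 0.36. The nuclear RNA Malat1 was at -0.83, and -0.89 after quantile normalization, and the neuronal RNA Meg3 at -2.21 and -2.52, without a call on all 3 scales.

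Stress and clock genes closed the set. Of 21 cytosolic heat shock genes 6 were higher and 1 lower. Hspa1b, an inducible Hsp70, ran from 8.39 to 10.26, median 9.47, in pull-down, against 4.96, 6.85, 6.33 and 5.99 in supernatants 13 to 16. The groups did not overlap, and the difference was 3.50 ± 0.29 (adjusted p = 6.78e-09). Its near-identical copy Hspa1a was higher by 2.79 ± 0.29, and the array may not separate them. Endoplasmic reticulum chaperones had 3 higher and 2 lower of 23, with Dnajb9 at 1.99 ± 0.26 and the disulfide isomerase P4hb at -2.49 ± 0.35. Clock genes had 5 of 21 higher and 5 lower. Npas2, a forebrain partner of the clock (2.26 ± 0.25), and Cry1, a repressor (1.55 ± 0.26), were higher, while the nuclear receptor Nr1d1 was lower, at -2.54 ± 0.33. Cytoskeletal genes had 8 higher and 3 lower of 35. The kinesin Kif5b was higher by 1.99 ± 0.30, and the axonal motor Kif1a was lower, at -2.94 ± 0.46. By the probe sets brightest in whole brain, the balance between directions moved in several of these lists: 4 higher and 4 lower for the receptors, 4 higher and 4 lower for synaptic vesicles, 3 higher and 6 lower for glucose use, 5 higher and 7 lower for the proteasome and 5 higher and 5 lower for the cytoskeleton. It was 3 higher and 4 lower for dendritic mRNAs, 5 higher and 5 lower for translation factors, 5 higher and 7 lower for cytosolic ribosomal proteins and 7 higher and 7 lower for splicing factors. It was also 4 higher and 4 lower for cholesterol synthesis, 2 higher and 4 lower for endoplasmic reticulum chaperones, 4 higher and 7 lower for clock genes, 3 higher and 3 lower for histones and 3 higher and 4 lower for long noncoding RNAs. No list's count was tested against the genes outside it.

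The mean level of each list moved with the arrays. Pull-down sleep-deprived 1 had the highest list mean of the 12 pull-downs in 31 of the 38 lists, and it also had the highest bacterial control signal of the pull-downs. The part of that array in the list counts was checked by leaving it out together with control 3: the excitatory list then had 8 genes higher and 3 lower as deposited and the astrocyte list 0 and 14, both as with all arrays. Other lists moved by a few genes. The interneuron list went from 5 higher and 3 lower to 4 and 4, the neuron list from 5 and 10 to 5 and 12, and the receptor list from 6 and 7 to 6 and 9. Endoplasmic reticulum chaperones went from 3 and 13 to 2 and 15, and microglia from 0 and 14 to 0 and 13.

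Calls also followed properties of the genes. Genes were sorted by their span on the genome from the RefSeq table, which gave a span for 18031 of 18193 genes. In 5 equal bins by span, 8.04% of the shortest genes (median 3.35 kb) were higher, then 10.2%, 12.8% and 16.3%, and 21.5% of the longest (median 118 kb). The share of lower genes stayed between 6.60% and 8.68%. Longer genes were also brighter. In genes above the median level, split again into 5 bins by span, the higher share went from 17.0% in the shortest to 29.1% in the longest. Level still rose across these bins, from a median of 6.45 to 7.30 in pull-down and from 7.25 to 7.62 in supernatant. The level used was the mean over the 16 arrays, which enter the difference. This split therefore does not hold level fixed, and the part of level was not tested. Probe sets without a gene symbol, 9160 in number, were higher in 3.23% and lower in 20.4%, while those of protein-coding genes were higher in 12.3% and lower in 15.4%. Probe sets whose names end in _x_at or _s_at, which can read several transcripts, were higher in 28.9% and 22.1%, against 7.75% for _at and 12.8% for _a_at. Genes named here were read on the last 2 kinds, except Aif1, which had a single _s_at probe set.

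**Figure D5:**
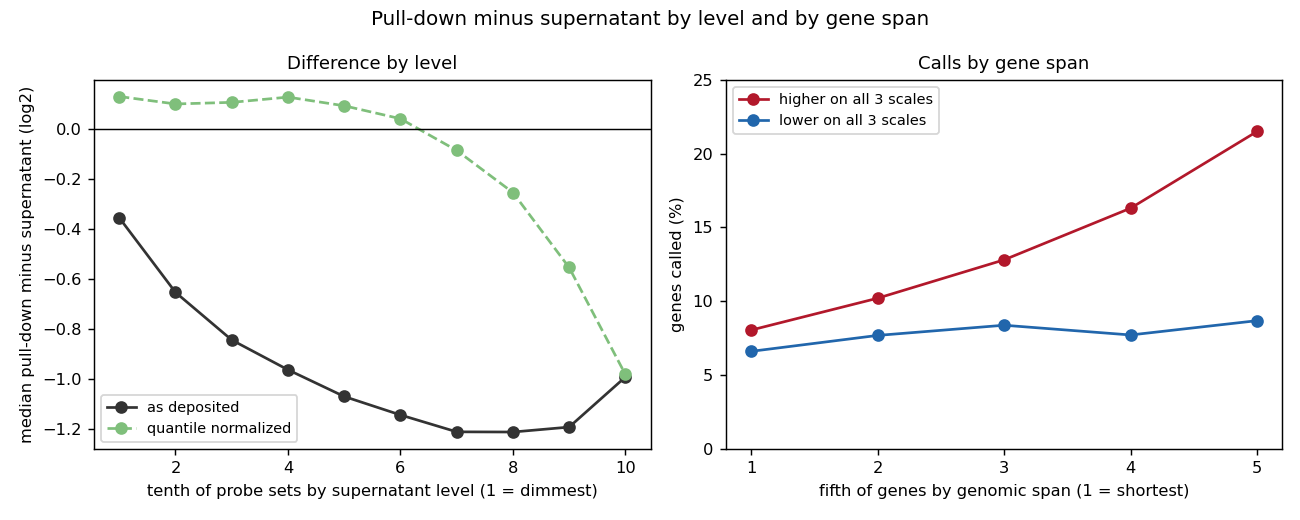
Left, the median pull-down minus supernatant difference (log2) in 10 equal bins of probe sets by supernatant level, as deposited (solid) and after quantile normalization (dashed); right, the share (%) of genes called higher or lower on all 3 scales in 5 equal bins by genomic span. The higher share rises from 8.04% to 21.5% with span, and the lower share stays under 9%.

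The spread also differed between the extracts, in a direction that depended on the gene. The first principal component separated the pull-downs from the supernatants and held 68.0% of the variance as deposited and 63.8% after quantile normalization. Among the list genes, Rtn1, a reticulon of neurons, had the largest ratio of pull-down to supernatant SD. It ran from 7.20 to 10.54, median 8.67, in pull-down and was at 11.33, 11.38, 11.36 and 11.40 in supernatants 13 to 16. Vamp2, a vesicle protein, and Scn2b, a sodium channel subunit, were next, with pull-down ranges of 10.07 to 13.24 and 6.49 to 10.34. In all 3 the highest pull-down was still below the lowest supernatant. These 3 were picked for the ratio, and their supernatant SDs, over 4 arrays, were 0.03 to 0.04. Other genes went the other way. The SD was 0.31 in pull-down and 0.75 in supernatant for Grik3, and 0.25 and 0.67 for Mapre2 1451989_a_at.

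Fewer probe sets separated supernatant from whole brain, although the number of arrays differs between the contrasts. Both this contrast and that of the pull-downs use the same 4 supernatants. In 1 fit of all 24 arrays, 4006 probe sets (8.89%) were higher in whole brain than in supernatant as deposited and 907 (2.01%) lower (limma, adjusted p under 0.05), with a median difference of -0.03. These counts depended strongly on the arrays and the scale, with 377 to 596 lower when a supernatant was left out and 8799 higher and 7903 lower with the 12 arrays of these extracts alone. Gfap was at 8.60 in whole brain (n = 8) and 8.87 in supernatant (n = 4; difference -0.27, adjusted p = 0.814). The 8 whole brains are 4 from sleep-deprived and 4 from control mice. For Fos the difference was 0.04 (adjusted p = 0.969), an average over sleep-deprived whole brains at 6.81 to 6.94 and control ones at 5.64 to 6.11, around the supernatant mean of 6.28. Nr4a2 was higher in whole brain than in supernatant by 1.13 (adjusted p = 0.000786), and the pull-downs were above whole brain by 2.35. For Homer1 1436387_at the whole-brain mean was 9.07 (9.38 to 9.59 after sleep deprivation and 8.36 to 8.96 in controls), between the supernatants (8.09) and the pull-downs (10.49).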

How the data were processed

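Whole-genome mouse expression arrays of 12 pull-downs, 4 supernatants and 8 whole brains were used. The authors deposited log2 values per probe set, made by RMA in affy per the submitters' processing notes. Which arrays were normalized together and the versions are not named in the sources used here. RMA usually gives arrays of one run a common distribution, and these arrays do not share one, so levels set across extracts depend on the scale.

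From the deposited log2 values, limma 3.58.1 (R 4.3.3) was fitted over 45037 probe sets (64 controls left out) in 3 groups, with the contrast of the mean of both pull-down groups minus supernatant and Benjamini-Hochberg adjustment at 0.05. This was repeated after quantile normalization and after centring. Single measures were tested by exact permutation over arrays, two-sided. Names came from the platform annotation, with 34945 probe sets carrying 1 symbol, 932 several and 9160 none, and 34741 of the first matched a RefSeq gene. On simulated data with 100 probe sets shifted at each size, a log2 shift of 2 was recovered in 92 to 93% and a shift of 1 in 23 to 26% of them. The simulated extracts shared a common level and had independent noise in each probe set. The simulation therefore does not cover the difference in level between the real extracts, or the choice of scale.

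The comparison and the 38 gene lists were chosen with earlier results of these data known. Genes named are the Homer1 probe sets, 15 per direction by their smallest difference over the scales, up to 6 called members per list with defining members that were not called, the 5 genes with the widest opposed probe sets, and list members with the largest SD ratio. The 15 per direction also had to lie above 5.31, the median level over probe sets, in the group where they were high. The number of arrays limits the precision. Other scalings, filters, weights and left-out arrays were tried.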

Additional observations from a re-analysis of the deposited data

Results flagged for a closer look

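In groups of 4 to 6 arrays, an array was set apart where its gap to the nearest other took up more of the group's range than Dixon's 95% critical value. Of 176 measures (the array median, 18S, Gapdh 3′ minus 5′ and the probe sets named above), each in 3 groups, 528 sets of values were examined and 68 values stood out. Chance alone sets about 1 in 20 apart, and probe sets on 1 array are not independent. Pull-down sleep-deprived 1 held 25 of them, control 3 16 and control 11 13. Sleep-deprived 1 and control 3 had the most 18S and bacterial control signal, and their part in these values was not tested. Among array measures, 18S was highest in supernatant 13 (14.42, next 14.26), and the Gapdh difference was lowest in pull-down control 11 (3.29, next 4.74).

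Sleep-deprived 1 was the highest array of its group, in log2 intensity, for Anks1b 1447464_at (7.08, next 5.40), Aplp2 1432344_a_at (7.06, next 4.53), Arc 1418687_at (9.17, next 7.83), Dlg4 1419581_at (8.57, next 6.67), Dusp5 1437199_at (8.54, next 6.77) and Fbl 1416684_at (7.32, next 5.74). The same held for Gap43 1423537_at (10.32, next 7.93), Homer1 1425710_a_at (8.27, next 6.59), Kidins220 1430449_at (6.85, next 5.08), Kif1a 1450108_at (9.15, next 6.64), Lss 1420014_at (8.002, next 6.76) and Mbp 1419646_a_at (8.55, next 6.48). The same held for Nr1d1 1426464_at (7.26, next 5.50), P4hb 1437465_a_at (7.05, next 5.39), Pcp2 1419085_at (7.46, next 6.85), Pfkm 1416780_at (8.73, next 6.87), Ppp1r1b 1451331_at (6.39, next 4.89) and Ptgds 1423860_at (6.90, next 5.35). The same held for Pvalb 1417653_at (10.55, next 8.72), Scd2 1415823_at (7.12, next 5.71), Scn2b 1430648_at (10.34, next 7.87), Slc17a7 1428986_at (8.59, next 5.77) and Zbed6 1455998_at (5.92, next 4.57). Sleep-deprived 1 was the lowest array of its group, in log2 intensity, for Cherp 1436885_a_at (10.32, next 11.08) and H2az1 1438091_a_at (11.90, next 12.35).

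Pull-down control 3 was the highest array of its group, in log2 intensity, for Dlg4 1419581_at (7.75, next 6.59), Dpysl2 1450502_at (8.78, next 7.01), Gria1 1448972_at (9.30, next 7.34), Homer1 1425710_a_at (7.51, next 5.69), Lss 1420014_at (7.90, next 6.76) and Macroh2a1 1424572_a_at (6.47, next 5.52). The same held for Npas4 1459372_at (6.66, next 4.65), Rab2b 1455857_a_at (5.83, next 4.07), Rpl8 1417762_a_at (7.17, next 5.84), Scd2 1415823_at (6.78, next 5.62), Scn2b 1430648_at (9.44, next 7.82) and Slc17a7 1428986_at (8.11, next 5.94). The same held for Slc2a3 1421924_at (5.97, next 4.13), Sv2a 1423406_at (9.04, next 6.97) and Uchl1 1448260_at (7.61, next 6.09). Pull-down control 3 was the lowest array of its group, in log2 intensity, for Idi1 1423804_a_at (10.65, next 11.43).

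Pull-down control 11 was the highest array of its group, in log2 intensity, for Cnp 1449296_a_at (7.82, next 6.38) and Junb 1415899_at (5.30, next 4.62). Pull-down control 11 was the lowest array of its group, in log2 intensity, for Camk2a 1457311_at (10.50, next 11.70), Cycs 1422484_at (9.81, next 10.51), Gabra5 1433602_at (8.03, next 9.30), Gad1 1416561_at (9.81, next 11.03), H1f2 1436994_a_at (7.63, next 9.06) and H2aw 1455712_at (9.42, next 10.61). The same held for Homer1 1436387_at (8.82, next 9.85), Pclo 1419392_at (8.89, next 9.94), Ptgds 1423859_a_at (8.88, next 10.23) and Rorb 1455799_at (7.35, next 8.62). Sleep-deprived 6 was the highest array of its group, in log2 intensity, for Tbr1 1416711_at (8.80, next 8.17). Sleep-deprived 10 was the lowest array of its group, in log2 intensity, for Dlx5 1449863_a_at (7.60, next 8.33).

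Supernatant 13 was the highest array of its group, in log2 intensity, for Gria1 1448972_at (11.36, next 11.03). Supernatant 13 was the lowest array of its group, in log2 intensity, for Elavl4 1452894_at (7.02, next 7.50), Mlc1 1448139_at (8.78, next 9.04) and Rgs2 1419248_at (7.79, next 8.49). Supernatant 14 was the lowest array of its group, in log2 intensity, for Kif1a 1450108_at (9.41, next 9.89). Supernatant 15 was the highest array of its group, in log2 intensity, for Dusp14 1431422_a_at (7.49, next 6.78), Mal 1432558_a_at (11.52, next 10.99), Pfkm 1416780_at (9.82, next 9.20) and Pomc 1433800_a_at (6.95, next 5.61). Supernatant 15 was the lowest array of its group, in log2 intensity, for Gabra5 1433602_at (6.87, next 8.09). Supernatant 16 was the lowest array of its group, in log2 intensity, for Pcp2 1419085_at (7.41, next 8.62).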

How the results depend on the processing

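Scale moved the counts most: against 4650 higher and 28228 lower probe sets as deposited, quantile normalization gave 10618 and 11107, and centring 17918 and 7293. Keeping only probe sets above the median level, which tests fewer of them, left 12792 lower as deposited, 7079 lower after quantile normalization and 4073 lower on all 3 scales. Leaving out each array in turn gave 4149 to 4974 higher and 25058 to 30668 lower as deposited, 9167 to 11123 and 9651 to 11662 after quantile normalization, and 4055 to 4818 and 6065 to 7834 on all 3 scales. For whole brain minus supernatant, 4329 were lower after quantile normalization and 1760 after centring, and the 12 arrays of these extracts alone gave 8799 higher and 7903 lower. Without 1 supernatant, 2645 to 3392 were higher and 377 to 596 lower, the fewest without supernatant 13. The cause was not tested. Of the named probe sets, Dlx2, a transcription factor of interneurons, changed sign with centring, to 0.033. No paired analysis was possible because pull-down and supernatant share only 1 replicate number and nothing ties the arrays. In all, 1573 probe sets were called on no scale.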
